A study of Homo sapiens with 48 samples.

Results

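The first 24 h of XBP1 silencing were followed in shXBP1 clone 18, a single-cell clone of the human multiple myeloma line AMO1. The samples were chosen by their titles, which name the clone and the time, and they were 6 of the 48 samples of the series: 3 flasks harvested before doxycycline (Dox) was added (0 h, labelled as no treatment) and 3 harvested after 24 h in 0.2 µg/ml Dox. Titles count the time in days but the treatment field in hours, which are the times given here. The genotype label reads XBP1 sh4,6,7, so the clone carries 3 Dox-inducible shRNAs against XBP1, and both groups carry them. The series also holds shXBP1 clone 1 and shIRE1 clones 1 and 3, each at 0, 24, 48 and 72 h in biological triplicate, to separate what follows loss of IRE1 from what follows loss of XBP1. AMO1 is a tumor plasma cell line grown as suspension culture, clone 18 is 1 clone of it, and no library of a non-targeting shRNA was analysed here. A response to Dox or to shRNA expression and a response to loss of XBP1 therefore cannot be told apart in this comparison.

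XBP1 is the transcription factor arm of IRE1 signaling. When unfolded proteins build up in the endoplasmic reticulum (ER), the kinase-endoribonuclease IRE1 (gene ERN1) excises an intron from XBP1 mRNA, and the spliced message encodes XBP1s, which turns on genes for protein entry into the ER, folding, glycosylation, degradation and export. Plasma cells depend on this program to secrete antibody. The endoribonuclease also cleaves other mRNAs, a process called regulated IRE1-dependent decay (RIDD). The counts analysed here do not separate spliced from unspliced XBP1.

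XBP1s binds elements built around ACGT or CCACG. Promoters of 5 secretory genes that fell are shown here because they were the largest falls with a RefSeq promoter entry that holds such an element upstream of the start. YIF1A would have been among them, but its only CCACG lay after the start. Where a gene had several promoter entries, the entry with most kinds of searched element, then most matches, was taken. The start of that entry need not be the first start of the gene. Each stretch runs from 10 bases before the farthest element to the last base before the start, 5' to 3' on the gene's strand, from RefSeq on GRCh38.p14. Capitals mark the searched elements, CCACG or CCACGT on either strand, and for FICD the ER stress element (ERSE), which is CCAAT and CCACG separated by 9 bases. DNAJB9 lies on the plus strand at chr7:108569790-108569873, FICD on the plus strand at chr12:108515113-108515276, SEC61A1 on the plus strand at chr3:128052343-128052436, CNPY2 on the minus strand at chr12:56315989-56316195 and SSR1 on the minus strand at chr6:7313200-7313346.
DNAJB9: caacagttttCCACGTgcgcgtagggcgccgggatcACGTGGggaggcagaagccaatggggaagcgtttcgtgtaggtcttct
FICD: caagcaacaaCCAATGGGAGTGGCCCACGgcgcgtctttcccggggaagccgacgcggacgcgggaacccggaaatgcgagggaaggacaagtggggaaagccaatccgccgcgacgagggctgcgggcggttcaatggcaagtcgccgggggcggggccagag
SEC61A1: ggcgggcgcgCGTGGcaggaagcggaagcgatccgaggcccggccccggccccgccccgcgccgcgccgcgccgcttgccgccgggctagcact
CNPY2: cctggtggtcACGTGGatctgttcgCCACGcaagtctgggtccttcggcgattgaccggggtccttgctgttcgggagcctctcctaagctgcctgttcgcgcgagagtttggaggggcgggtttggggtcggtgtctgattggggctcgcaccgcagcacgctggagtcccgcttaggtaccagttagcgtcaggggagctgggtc
SSR1: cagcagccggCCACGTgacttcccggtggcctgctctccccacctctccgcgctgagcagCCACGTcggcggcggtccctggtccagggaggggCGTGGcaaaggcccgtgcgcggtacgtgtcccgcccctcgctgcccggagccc

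The elements of DNAJB9 lay 74 and 48 bases before the start, the ERSE of FICD 154 bases, the single element of SEC61A1 84 bases, those of CNPY2 197 and 182 bases, and those of SSR1 137, 87 and 53 bases. Over windows of 300 bases (250 before the start and 50 after it), CCACGT was present in 12% of 15157 promoter entries of genes tested, in 22.4% of entries of genes that fell and in 9.49% of entries of genes that rose. Among members of the secretory gene lists described below, CCACGT was present in 46.5% of entries of genes that fell and in 25.5% of entries of those not called. The shorter CCACG, which CCACGT contains, stood in 47.8% of all entries and in 75.8% and 70.3% of the secretory entries that fell and were not called. The longer element TGACGTGG was rare, with 0.825% of all entries, 3.06% of those of genes that fell and none of those of genes that rose, and among secretory members it stood in 8.08% of entries that fell and 8.97% of those not called. ERSE was found in 0.119% of all entries and in 1.36% of the entries of genes that fell, and the variant ERSE-II (ATTGG and CCACG separated by 1 base) in 0.0858% and 0.509%. Among secretory members that fell and those not called, the shares were 7.07% and 3.45% for ERSE and 2.02% and 0.69% for ERSE-II. The called genes with either were XBP1 itself, FICD, ERO1B, SERP1, CRELD2 and CANX for ERSE and HYOU1, HERPUD1 and SHCBP1 for ERSE-II, and all of them fell. These shares describe letters in a window and were not tested.

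RNA was read as single ends of 50 bases, and the deposited counts per gene summed to 19177855 to 36240624 in the 6 libraries, so that 1 count was at most 0.0521 CPM. CPM is a count scaled to a common library total, here with TMM factors, and is not corrected for gene length. The expected cell type was checked first. All 10 plasma cell markers were detected at 1 CPM or more, with a summed level of 18300 to 18800 CPM at 0 h and 17200 to 17400 CPM at 24 h. Of 5 T cell markers 2 reached 1 CPM, with sums of 11.1 to 13.3 CPM at 0 h and 14.2 to 15.1 CPM at 24 h, and CD2 and CD3D were at 0. None of 5 myeloid, 1 of 5 epithelial and 1 of 5 fibroblast markers reached 1 CPM, with KRT19, DCN and COL3A1 at 0. At 21 genes that separate clone 18 from clone 1, each of the 6 libraries was nearer to clone 18 at 20 or 21. A library labelled clone 18 at 72 h (replicate 3) was nearer to clone 1 at all 21, and it enters no fit behind the values of the report, only an alternative fit of all 12 libraries of the clone.

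One library stood apart. 24 h replicate 1 differed from replicates 2 and 3 with a mean chi-square of 19.1 and 18.2 per gene, whereas replicates 2 and 3 gave 4.4 and the 0 h libraries 2.87 to 5.02. Its log2 deviation from the other 24 h libraries followed the GC content of the gene (r = -0.692 across 10257 genes, which are not independent replicates). Below the lower quartile of GC content its median deviation was 0.12, and above the upper quartile -0.22. Since each library is set against the other 2 of its group, 24 h replicates 2 and 3 deviated the opposite way (r = 0.38 and 0.726), and 0 h replicates 1 and 2 differed as well, by less at the quartiles (r = 0.558 and -0.619). Across those 10257 genes the fold change between 24 h and 0 h was little related to GC content (r = -0.0815). The genes called below did differ in it. Their median GC content was 50.4% for falls and 45.4% for rises, against 47.6% over all genes tested. The total of changed genes is therefore given with and without this library, as are counts in gene lists that moved by over 1.5 times or gained calls in the other direction without it, and whether GC content played a part in any single gene was not tested.

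**Figure D1:**
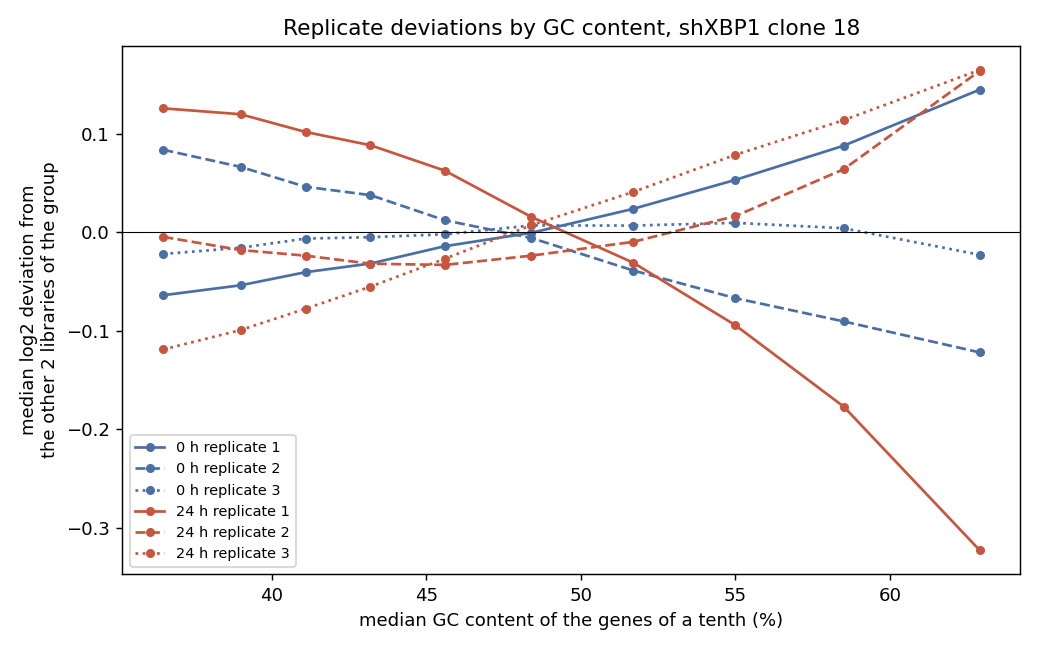
Deviation of each library from the other 2 of its group (median log2 difference, y axis) in deciles of genes ordered by GC content (x axis, percent). Lines are the 3 replicates at 0 h (blue) and at 24 h (red), and 24 h replicate 1 goes from above 0 in low-GC genes to below 0 in high-GC genes while 24 h replicates 2 and 3 rise.

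XBP1, the target of the shRNAs, fell to 36.9% of its level at 0 h. XBP1 mRNA (chr22:28794555-28800597, minus strand, GRCh38 with GENCODE 44) stood at 157.2, 168.5 and 157.7 CPM at 0 h and at 61.67, 57.3 and 59.39 CPM at 24 h. The groups were far apart, with a log2 fold change of -1.44 (SE 0.051, adjusted p = 1.41e-08), and the value stayed between -1.40 and -1.47 when any 1 library was left out. ERN1, which encodes IRE1, was at 391.9 ± 3.98 and 381.2 ± 12.3 CPM (SD, n = 3), a log2 difference of -0.04 (SE 0.043, adjusted p = 0.653). IRF4, a plasma cell transcription factor on which myeloma cells depend, was at 1537 ± 14.7 and 1536 ± 44.8 CPM, a difference of -0.00 (SE 0.044, adjusted p = 0.996). In bulk samples, fewer cells that hold a message and less of it per cell cannot be told apart.

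Of 16262 genes tested, 874 (5.37%) changed at an adjusted p under 0.05, and 3382 had an unadjusted p under 0.05. Of the changed genes 596 fell (3.66% of genes tested) and 278 rose (1.71%), so 68.2% of the calls were falls. Most changes were small: 435 of the genes that fell (73%) and 200 of those that rose (71.9%) moved by less than 0.5 on the log2 scale, while 28 fell and 16 rose by 2-fold or more. The median log2 fold change was -0.34 over the genes that fell, 0.34 over those that rose and 0.0056 over all genes tested. Without 24 h replicate 1 the count rose to 3015 calls among 16625 genes tested, with 1659 falls and 1356 rises (55% falls). Of the 874 genes, 873 were among them. Counts in gene lists given without this library stand beside these larger totals, not beside 3.66% and 1.71%. Each other library left out gave 337 to 463 calls, with falls at 71.3% to 79.2%. With a correction for GC content, chosen after seeing the data, 2590 genes were called, 54.5% of them falls. Protein-coding genes made up 83.1% of the falls and 66.2% of the rises, and pseudogenes 12.8% and 20.9%, against 73.5% and 12.7% of all genes tested.

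**Figure D2:**
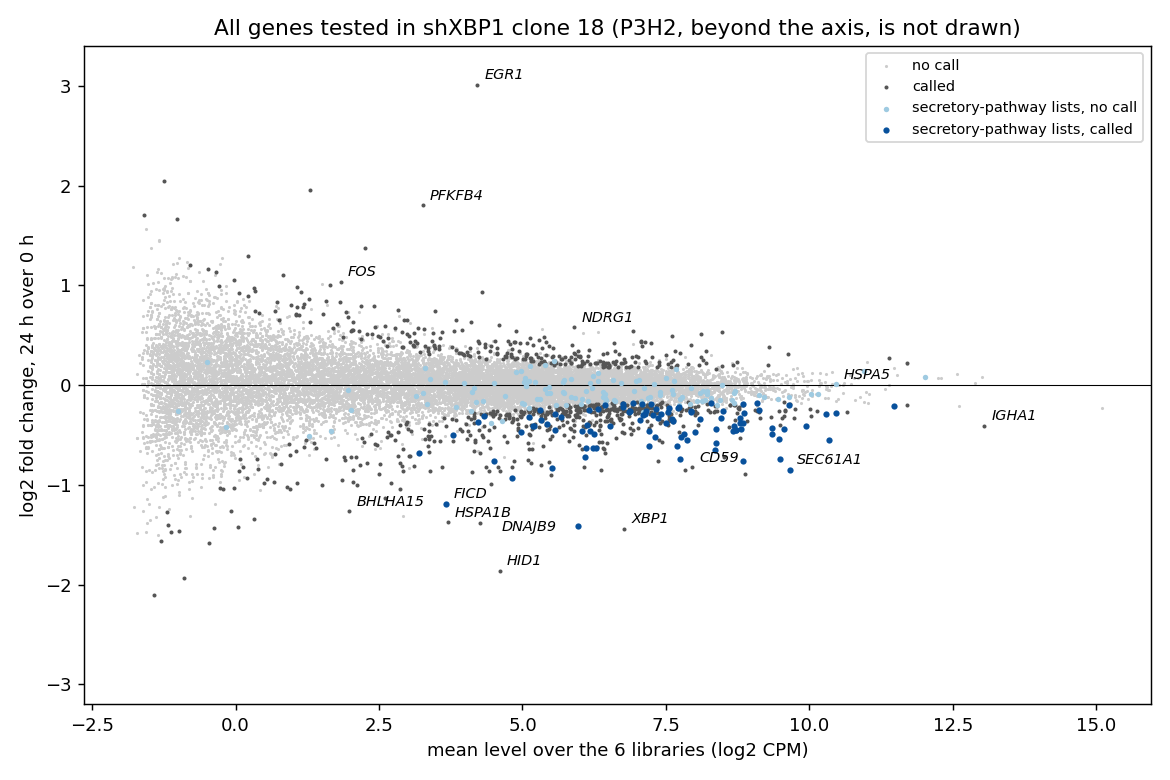
Log2 fold change at 24 h over 0 h (y axis) against mean level over the 6 libraries (x axis, log2 CPM) for the genes tested. Grey points were not called, dark points were called, and blue marks the 6 secretory-pathway lists, whose called members all lie below 0. P3H2, at 10.08, is not drawn.

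Many genes of the secretory pathway fell. In 6 lists (ER translocation, chaperones, disulfide isomerases, ER-associated degradation, N-glycosylation and ER to Golgi traffic) 96 of 213 members tested fell (45.1%, against 3.66% of all genes tested), 117 were not called and none rose, with a median log2 fold change of -0.19. They were 16.1% of all genes that fell. Among the 50 genes with the smallest p-values that fell, 27 belonged to these lists. The count was 129 without 24 h replicate 1, 66 to 75 with any other library left out and 133 with the GC correction. Without 24 h replicate 1, members of the chaperone (1), degradation (2) and translocation (2) lists also rose. The median GC content of the 96 genes was 45.9%, against 50.4% over all genes that fell and 47.6% over all genes tested.

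Most genes of the entry gate of the ER fell. Of 29 members of the translocation and signal peptide list, 17 fell, with a median of -0.30. SEC61A1, the channel subunit of the translocon whose promoter is shown above, stood at 1053, 1029 and 1045 CPM at 0 h and at 570.1, 577.9 and 590.5 CPM at 24 h. Its groups did not overlap and its level fell to 55.6% (log2 fold change -0.85, SE 0.042, adjusted p = 3.32e-07). The other channel subunits fell as well, SEC61B by 0.83 and SEC61G by 0.63 on the log2 scale. SSR1 and SSR3, subunits of the translocon-associated protein complex that helps nascent chains enter, fell by 0.76 and 0.74, and SSR4 of the same complex fell by 0.55. SSR1 went from 555.6, 596.5 and 574.9 CPM to 371.4, 333.3 and 314.5 CPM, so that its lowest 0 h library was well above its highest 24 h library. SEC62 (279.1 CPM at 24 h and 290.3 at 0 h, adjusted p = 0.516) and TRAM2 (355.1 CPM at both times, adjusted p = 0.998), also of this list, did not pass the test.

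Among ER chaperones and cochaperones, 15 of 26 fell and none rose, with a median of -0.30. The largest fall was that of DNAJB9 (ERdj4), a J-domain cochaperone of BiP, which went from 90.51, 94.04 and 90.27 CPM to 36.93, 34.71 and 31.6 CPM. Its 24 h level was 37.6% of that at 0 h (log2 fold change -1.41, SE 0.062, adjusted p = 1.29e-07). FICD, an ER enzyme that modifies BiP by AMPylation, went from 17.12, 17.88 and 19.19 CPM to 7.578, 7.953 and 8.254 CPM (log2 fold change -1.19, SE 0.084, adjusted p = 8.55e-06). CNPY2, FKBP11, HSPA13 and SERP1 followed with log2 fold changes of -0.76, -0.61, -0.61 and -0.59. FKBP11 is an ER prolyl isomerase, HSPA13 an Hsp70 family member and SERP1 a small protein that binds the translocon. HYOU1, an Hsp70-like exchange factor of BiP, fell by 0.41. The abundant chaperones did not follow. HSPA5, which encodes BiP, stood at 1392, 1438 and 1405 CPM at 0 h and at 1473, 1403 and 1377 CPM at 24 h, and the groups overlapped (log2 difference 0.01, SE 0.045, adjusted p = 0.958). HSP90B1 (GRP94) was at 4043 ± 70.4 and 4275 ± 440 CPM (adjusted p = 0.532) and CALR (calreticulin) at 1896 ± 33.4 and 2087 ± 115 CPM (adjusted p = 0.139), whereas CANX (calnexin) fell by 0.21 (adjusted p = 0.0309).

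Of 23 disulfide isomerases and oxidases, 9 fell, with a median of -0.15. ERO1B, which reoxidizes disulfide isomerases, fell the most, from 11.18, 11.44 and 11.49 CPM to 7.147, 6.894 and 7.293 CPM (log2 fold change -0.68, adjusted p = 0.000609). P4HB, the founding disulfide isomerase, fell by 0.55 and PDIA4 and PDIA5 by 0.49 and 0.41. PDIA3 and PDIA6 had log2 differences of -0.09 and -0.09 and did not pass the test (adjusted p = 0.296 and 0.254). ERO1A, the other oxidase, was at 193.5 CPM at 0 h and 216.2 CPM at 24 h (adjusted p = 0.159). The 24 h levels of TXNDC15 and QSOX1 were 80.2% and 81.8% of those at 0 h, and both passed the test.

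Degradation genes had small falls. Of 34 members of the ER-associated degradation list, 13 fell, with a median of -0.12 and no fall over 0.46. SELENOS, a membrane partner of the p97 ATPase, ERLEC1, a lectin that reads trimmed glycans, and EDEM2, a mannosidase-like protein, each fell by 0.46. DERL2, a channel component, fell by 0.40 and SYVN1, the ubiquitin ligase HRD1, by 0.33. SYVN1 was at 190.6, 177.8 and 183.5 CPM at 0 h and at 132.9, 149.3 and 156.4 CPM at 24 h, with no overlap (adjusted p = 0.00727). SEL1L, the partner of HRD1, was at 617.9 and 569.8 CPM and did not pass the test (adjusted p = 0.201).

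N-glycan synthesis and transfer had 13 of 40 members that fell and a median of -0.18, and without 24 h replicate 1 the falls were 21. OSTC, an accessory subunit of the oligosaccharyltransferase, went from 83.09, 89.13 and 82.53 CPM to 56.59, 50.4 and 48.22 CPM (log2 fold change -0.72, SE 0.065, adjusted p = 4.18e-05). ALG2, a mannosyltransferase of the lipid-linked oligosaccharide, fell by 0.63. STT3A, the catalytic subunit of the transferase, fell by 0.44 and its partners RPN1 and DDOST by 0.43 and 0.38. PGM3, which makes a precursor of UDP-N-acetylglucosamine, fell by 0.48.

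ER to Golgi traffic gave the most falls, 29 of 61 members, with a median of -0.19. YIF1A, a membrane protein of ER to Golgi carriers, went from 39.96, 36.23 and 36.05 CPM to 17.68, 21.04 and 20.07 CPM (log2 fold change -0.93, SE 0.079, adjusted p = 2.76e-05). SEC24D, a cargo adaptor of the COPII coat, went from 262.6, 271.6 and 270.7 CPM to 163.5, 156.8 and 161.6 CPM, with little spread in either group (log2 fold change -0.74, SE 0.043, adjusted p = 1.18e-06). TMED9, a p24 cargo receptor, and ARFGAP3, a GTPase-activating protein for ARF1, fell by 0.65 and 0.63. The KDEL receptors KDELR2 and KDELR3, which return ER residents from the Golgi, fell by 0.52 and 0.50. UFM1, a ubiquitin-like modifier used at ER ribosomes, fell by 0.39 and was the only one of 9 UFMylation genes called. The lowest value in that list, -0.45, belonged to a member that did not pass the test, and without 24 h replicate 1 the list had 3 falls and 1 rise.

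A list of 62 genes reported as XBP1s targets overlapped the lists above. It was drawn up for this work with earlier results of these data known. Of its members 47 fell (75.8%, against 3.66% of all genes tested) and none rose, with a median of -0.40. Beside DNAJB9, FICD and the translocon genes, it held BHLHA15 (MIST1), a transcription factor of secretory cells, which went from 7.101, 4.841 and 5.582 CPM to 1.417, 2.904 and 2.77 CPM. The groups did not overlap at this low level (log2 fold change -1.27, SE 0.22, adjusted p = 0.00566). CHPF, a chondroitin polymerizing factor, fell by 0.82. Its 24 h replicate 1 was lowest, at 36.13 CPM against 57.13 and 53.06 CPM. The members not called were HSPA5, PDIA3, PDIA6, DNAJB11, ERP44, GFPT1, MANF, SDF2L1, SEC31A, SEC62, SEL1L, SPCS1, SPCS2, TXNDC5 and UAP1, with log2 differences from -0.51 (SPCS2, at 2.804 and 1.988 CPM) to 0.07 (ERP44). The count of falls was 54 without 24 h replicate 1 and 36 to 41 with any other library left out. In shXBP1 clone 1, 27 of the 62 fell and 1 rose. In shIRE1 clones 1 and 3, 49 and 54 fell and 4 and 0 rose. Falls over all genes tested in these clones were 5.24%, 30.3% and 22.5%.

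**Figure D3:**
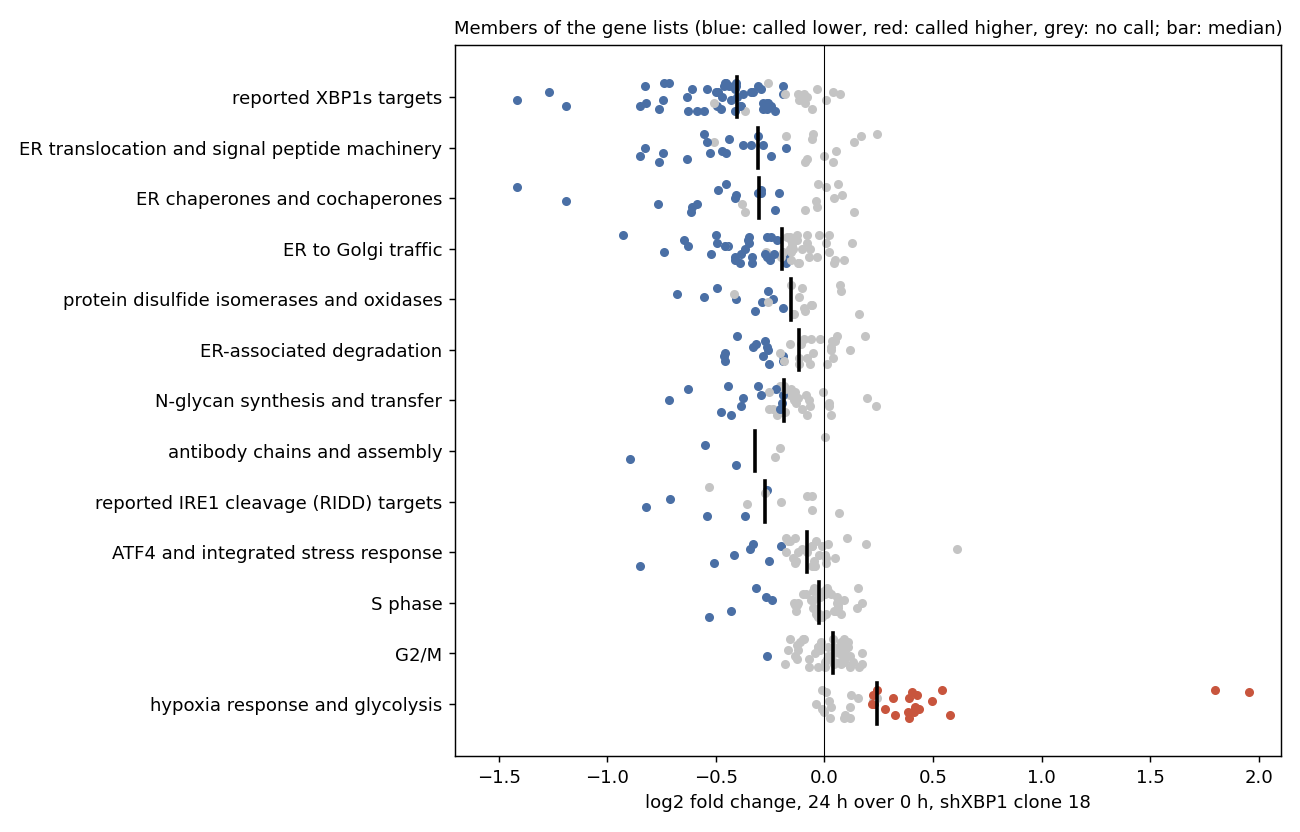
Log2 fold change at 24 h over 0 h (x axis) of each tested member of 13 gene lists (y axis). Points are genes, blue for called falls, red for called rises and grey for no call, and bars are list medians, which run from -0.40 for the reported XBP1s targets to 0.24 for hypoxia response and glycolysis. The vertical placement within a list carries no value.

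The single largest fall was outside these lists. HID1, a peripheral Golgi protein needed for secretory granule formation (chr17:74950742-74973166, minus strand), went from 41.33, 35.46 and 40.54 CPM to 9.857, 10.64 and 11.73 CPM. It kept 27.5% of its 0 h level (log2 fold change -1.86, SE 0.088, adjusted p = 2.17e-07). HSPA1B, a heat-inducible cytosolic Hsp70, went from 19.66, 18.28 and 19.78 CPM to 6.9, 8.55 and 6.756 CPM (log2 fold change -1.37, adjusted p = 9.7e-06). HSPA1B has a near-identical copy, HSPA1A, which did not pass the filter, so the share of reads from each is uncertain. Of 19 cytosolic heat shock genes tested, a list made after the values were seen, 4 fell (21.1%, against 3.66% of all genes tested). Without 24 h replicate 1, 8 of this list fell. Several other large falls were pseudogenes or short genes whose 24 h replicate 1 lay between the groups, among them AL109741.2 (19.44 CPM against 5.7 and 7.661 CPM), HSPA8P16 and RPL39, a ribosomal protein gene (22.18 CPM against 10.29 and 12.21 CPM). Of these, AL109741.2, HSPA8P16 and RPL39 lost the call when any 0 h library was left out, with adjusted p of 0.0585 to 0.179, and reads of such genes may be shared with related copies.

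Sugar nucleotide supply and Golgi glycosylation, a list made after the values were seen, held 17 falls among 35 members (48.6%). Its median was -0.19, and 3.66% of all genes tested fell. TMEM165, a Golgi membrane protein required for glycosylation, went from 59.08, 62.68 and 55.6 CPM to 32.07, 33.33 and 29.37 CPM (log2 fold change -0.90, SE 0.068, adjusted p = 1.25e-05). GMPPB and GMPPA, which make and regulate GDP-mannose, fell by 0.86 and 0.63, and SLC33A1, the acetyl-CoA transporter of the ER, fell by 0.63.

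**Figure D4:**
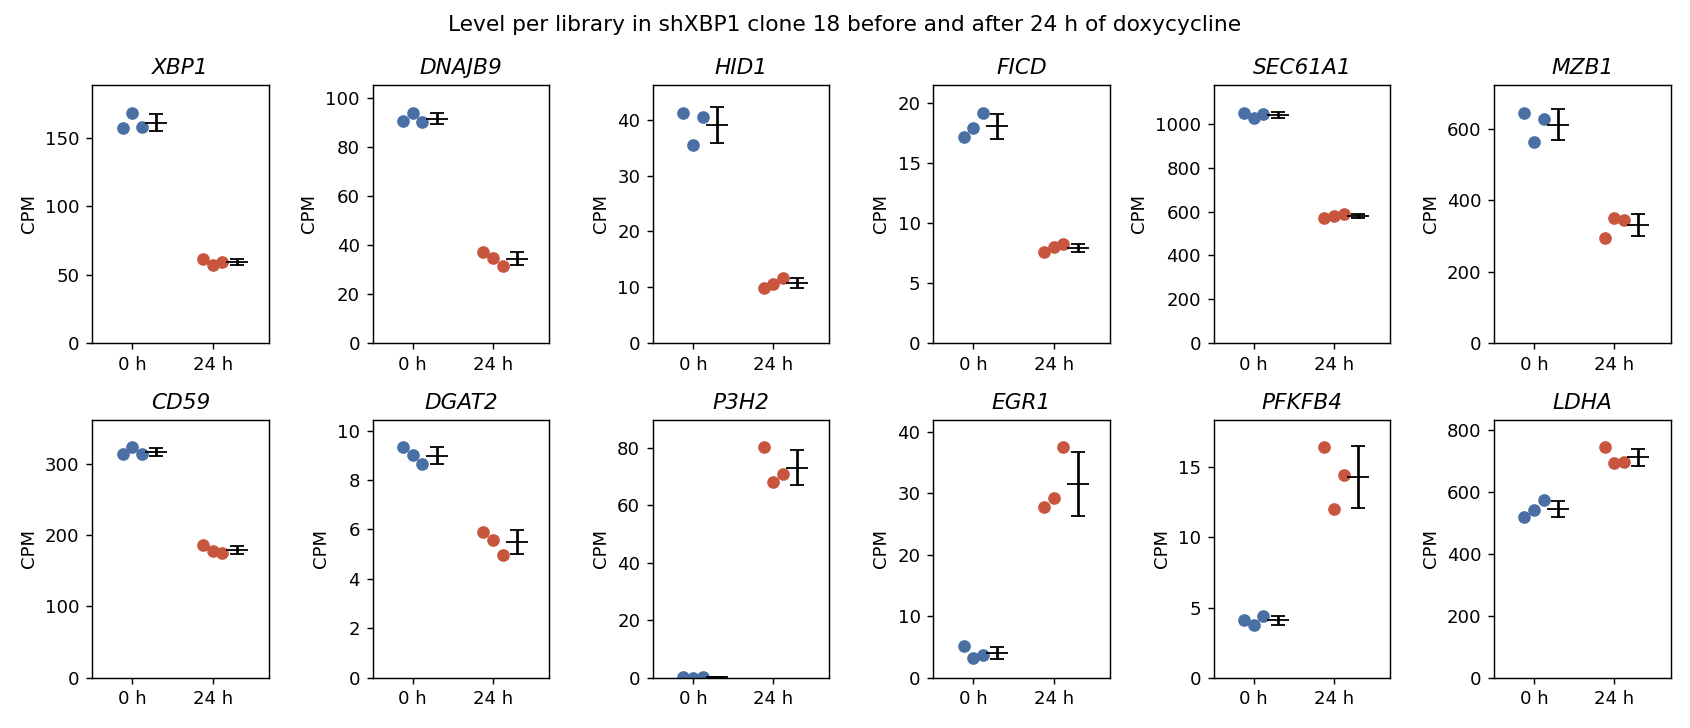
Level per library (y axis, CPM, linear from 0) at 0 h (blue) and 24 h (red) of 12 genes in shXBP1 clone 18. Points are the 3 libraries of a group and bars are mean ± SD. XBP1, DNAJB9, HID1, FICD, SEC61A1, MZB1, CD59 and DGAT2 were lower and P3H2, EGR1, PFKFB4 and LDHA higher at 24 h, with no overlap between groups in any of the 12.

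Among antibody chains and assembly genes, 3 of 6 tested fell (50%, against 3.66% of all genes tested). MZB1, an ER protein that assists antibody assembly in plasma cells, went from 646.8, 564.1 and 628.9 CPM to 294.9, 350.9 and 344.6 CPM (log2 fold change -0.89, SE 0.07, adjusted p = 1.66e-05). IGHA1, an antibody heavy chain, went from 10320, 8923 and 9830 CPM to 5801, 8073 and 8037 CPM, so 24 h replicate 1 was far below the other 24 h libraries. Its log2 fold change was -0.41 (adjusted p = 0.0449), and -0.27 without that library (adjusted p = 1.74e-05). With any other single library left out its adjusted p was 0.0456 to 0.182. IGHA2 is nearly identical to IGHA1 and its reads may be shared. IGKC and JCHAIN had log2 differences of -0.23 and -0.21 and did not pass the test (adjusted p = 0.0551 and 0.0712). With 24 h replicate 1 left out 5 of the 6 fell, and with any 0 h library left out only MZB1 did.

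Of 21 plasma-cell and B-cell identity genes, 3 fell (14.3%), among them the silenced XBP1 itself, and 1 rose, with a median of -0.00. Over all genes tested 3.66% fell and 1.71% rose. Without 24 h replicate 1 the counts in this list were 6 falls and 4 rises. Beside XBP1, the receptor gene TNFRSF17 (BCMA) went from 352.3, 359 and 352.9 CPM to 309.5, 280.7 and 289.4 CPM (log2 fold change -0.28, adjusted p = 0.00524) and the kinase gene PIM2 fell by 0.26. PRDM1 (BLIMP-1), a repressor that drives plasma cell differentiation, rose from 248.6, 248.3 and 250.5 CPM to 295.1, 312.7 and 301.9 CPM (log2 fold change 0.28, adjusted p = 0.00226). SDC1, MYC, CD38 and IKZF3 had log2 differences of 0.02, 0.04, 0.04 and 0.08, none of which passed the test.

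Some genes of the other stress arms fell. Of 9 sensors and transducers tested, XBP1, CREB3 and CREB3L2 fell, the latter pair being ER-anchored transcription factors with log2 fold changes of -0.41 and -0.35, and 5 fell without 24 h replicate 1. ATF6 was at 234.1 and 238 CPM (adjusted p = 0.813) and EIF2AK3, which encodes PERK, at 302.1 and 269.1 CPM (adjusted p = 0.062). In the ATF4 and integrated stress response list 7 of 35 fell (20%, against 3.66% of all genes tested) and none rose. Without 24 h replicate 1 the counts were 11 falls and 1 rise. ATF4 went from 205.9, 206.9 and 219 CPM to 175.1, 156.2 and 166.9 CPM (log2 fold change -0.34, adjusted p = 0.00226). DDIT4, an inhibitor of mTORC1, fell by 0.85, CHAC1, a glutathione-degrading enzyme, by 0.51 and DDIT3 (CHOP) by 0.42.

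Among 13 tested genes reported as RIDD substrates, 5 fell (38.5%, against 3.66% of all genes tested) and none rose. In shXBP1 clone 1 this list was mixed, with 3 falls and 2 rises among 11 tested and a median of -0.09. CD59, an inhibitor of complement, went from 313.2, 322.7 and 313.1 CPM to 185.3, 177 and 174.2 CPM (log2 fold change -0.82, SE 0.044, adjusted p = 6.1e-07). DGAT2, an enzyme of triglyceride synthesis, went from 9.326, 9.003 and 8.647 CPM to 5.914, 5.591 and 4.975 CPM (log2 fold change -0.71, SE 0.1, adjusted p = 0.00158). BLOC1S1, TAPBP and HGSNAT fell by 0.54, 0.36 and 0.26.

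Proliferation genes were mostly not called. Over all genes tested 3.66% fell and 1.71% rose. Of 43 S phase genes 5 fell (11.6%), among them CDC6, a replication licensing factor, by 0.43 and FEN1, a flap endonuclease, by 0.32. MRPL36, listed with S phase, encodes a mitochondrial ribosomal protein and fell by 0.53 at a level of 3.802 CPM. Of 52 G2/M genes only RANGAP1 fell, by 0.26 (1.92% of the list, under the share of all genes tested), and the list's median was 0.04. Without 24 h replicate 1 the counts were 8 falls and 1 rise in S phase and 6 falls and 3 rises in G2/M. In that fit 1659 of all 16625 genes tested fell and 1356 rose. In cholesterol and fatty acid synthesis 6 of 33 fell (18.2%), INSIG1 and FADS2 by 0.33 each. Without 24 h replicate 1 this list had 12 falls and 4 rises. Among 27 interferon-stimulated genes OASL fell by 0.46 (3.7% of the list, near the 3.66% of all genes tested) and 1 member rose. Without 24 h replicate 1 the list had 3 falls and 2 rises. Of 13 mitochondrially encoded mRNAs MT-ND1 and MT-CYB rose, by 0.27 and 0.22, a count that was 5 without 24 h replicate 1, and the share of counts from such genes was 3.48% to 3.76% at 0 h and 3.74% to 4.37% at 24 h.

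The largest rise was of P3H2, which encodes a collagen prolyl 3-hydroxylase (chr3:189956728-190122437, minus strand). It had 2, 1 and 2 counts in the 0 h libraries and 2604, 2515 and 2514 counts at 24 h. The ratio of levels was 1148, with a 95% interval of 491.7 to 3536 (exact Clopper-Pearson on the split of counts, counting error only). In the 36 libraries of the other 3 clones, 2 had a count and neither had more than 1. At 48 h P3H2 rose by a further 0.73 on the log2 scale (adjusted p = 0.002), and the 72 h library that resembled clone 1 had 0 counts of it.

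The next rises were of immediate early and hypoxia-linked genes. EGR1, an immediate early transcription factor, went from 5.14, 3.237 and 3.685 CPM to 27.72, 29.26 and 37.48 CPM (log2 fold change 3.01, SE 0.16, adjusted p = 4.41e-07). FOS, a partner in AP-1, rose by 1.04 at a level of 2.223 to 4.54 CPM. Immediate early genes, a list made after the values were seen, did not move one way. Of 20 tested, EGR1, FOS, SGK1 and TRIB1 rose while BTG2, ZFP36, IER5 and DUSP5 fell. Over all genes tested 1.71% rose and 3.66% fell. BTG2, an antiproliferative gene, went from 454, 443.4 and 465.1 CPM to 289.2, 265.9 and 268.7 CPM (log2 fold change -0.73).

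Hypoxia response and glycolysis, also listed after the values were seen, held 21 rises among 37 genes tested and no fall, with a median of 0.24. Of all genes tested 1.71% rose. In shXBP1 clone 1, 4 of 36 members rose and 1 fell. In shIRE1 clones 1 and 3, 14 and 13 of 36 rose and 15 and 4 fell. Rises over all genes in these 3 clones were 7.54%, 31% and 21.2%. MIR210HG, the host transcript of miR-210, went from 0.9538, 0.9558 and 0.8392 CPM to 3.697, 3.067 and 3.929 CPM (log2 fold change 1.96, SE 0.18, adjusted p = 4.11e-05). PFKFB4, which makes an activator of glycolysis, went from 4.133, 3.761 and 4.415 CPM to 16.42, 12 and 14.42 CPM (log2 fold change 1.80, SE 0.13, adjusted p = 9.7e-06). NDRG1, BNIP3L and KDM3A, known HIF targets, rose by 0.58, 0.54 and 0.50, and LDHA, lactate dehydrogenase, by 0.38. Glycolytic genes such as TPI1, ENO1, PGK1 and GAPDH had log2 differences of -0.01, 0.01, 0.10 and 0.12 and did not pass the test. The count was 26 without 24 h replicate 1. PPFIA4, a liprin, rose by 1.38 as well. Oxygen and cell density were not recorded in the labels and their part was not tested.

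The other clones were each tested at 24 h against their own 0 h libraries, which are separate from those of clone 18. In shXBP1 clone 1, 5.24% of genes tested fell and 7.54% rose. In shIRE1 clone 1 the shares were 30.3% and 31%, and in shIRE1 clone 3 they were 22.5% and 21.2%. Of the genes that fell in clone 18 and were tested in both clones, 141 also fell in shXBP1 clone 1, which is 23.7% of the falls in clone 18 and 17.3% of those in clone 1, and 60 rose there (10.1%). With shIRE1 clone 1, 255 fell in both (42.9% of clone 18, 5.25% of the other) and 188 (31.6%) went the opposite way. With shIRE1 clone 3, 283 fell in both (47.6% and 7.92%) and 73 (12.3%) went the opposite way. Of the rises in clone 18, 45, 106 and 86 were shared with those clones in that order (16.4%, 38.5% and 31.4%), which is 3.68%, 2.16% and 2.62% of the rises in those clones, while 21, 93 and 51 went the opposite way (7.64%, 33.8% and 18.6% of the rises in clone 18).

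Of 15244 genes tested in all 4 clones, 88 fell in every clone, 40 of them in the 6 secretory lists, and 22 rose in every clone. Secretory genes that fell in every clone included SEC61A1 (-0.97 in shXBP1 clone 1, -0.82 and -0.60 in shIRE1 clones 1 and 3), SSR1 (-0.97, -1.31 and -1.40) and P4HB (-0.71, -0.65 and -0.69). HID1 also fell in each, by 1.55, 0.46 and 1.55, and DNAJB9 by 0.95, 1.06 and 2.24. ZNF608 and AMPD3 (0.55 and 0.54 in clone 18) were among the rises common to the 4 clones. No member of the secretory lists could be, since none rose in clone 18. HSPA5, for which clone 18 gave 0.01, had a log2 difference of -0.07 in shXBP1 clone 1 (adjusted p = 0.472) and fell by 1.30 and 0.33 in the shIRE1 clones.

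Responses were then compared directly. The response of clone 18 differed from that of shXBP1 clone 1 at 2723 of 17875 genes (15.2%), higher in clone 18 at 1060 and lower at 1663. XBP1 itself fell less in clone 18 than in clone 1 (-1.90), by 0.46 (SE 0.088, adjusted p = 0.00118). ERN1, not called in clone 18, rose by 0.77 in clone 1 (adjusted p = 0.00137). The difference of clone 18 from clone 1 was -0.82 (SE 0.060, adjusted p = 5.68e-09). In the 6 secretory lists 20 of 213 members were lower and 8 higher in clone 18 than in clone 1, with a median difference of 0.0023. For SEC61A1 the difference was 0.11 (SE 0.067, adjusted p = 0.266) and for SEC24D -0.01 (SE 0.072, adjusted p = 0.932), whereas DNAJB9 and FICD fell further in clone 18, by 0.47 and 0.52. DDIT3 and CHAC1 rose in clone 1 (0.96 and 0.99) and fell in clone 18, with differences of -1.38 and -1.51. Proliferation genes fell more often in clone 1, where 12 of 43 S phase and 16 of 52 G2/M genes fell and none rose. Medians there were -0.17 and -0.22, and 5.24% of all genes tested fell. The response differed at 10 S phase and 18 G2/M genes, all higher in clone 18.

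Against the mean of the shIRE1 clones, the response of clone 18 differed at 6103 of 17875 genes (34.1%). XBP1 was lower in clone 18 by 1.41 and ERN1 was higher by 0.90, since shIRE1 lowered ERN1 (-0.28 and -1.60 in clones 1 and 3). IRF4 fell in both shIRE1 clones (-0.41 and -0.53) and the difference from clone 18 was 0.47 (SE 0.055, adjusted p = 4.21e-07). Proliferation genes differed, with 40 of 43 S phase genes higher in clone 18 (median 1.30) and 50 of 52 G2/M genes likewise (median 1.32). In the shIRE1 clones 41 and 40 of 43 S phase genes fell. CDC6, for example, fell by 2.56 and 2.17 there and by 0.43 in clone 18, a difference of 1.94 (SE 0.058).

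A set of 10 genes fell in both shXBP1 clones and rose in both shIRE1 clones, and it was picked for that pattern. It included YIF1A, TMEM165, CD59, SLC38A10, DGAT2, TMEM179B, RDH11, TAPBP and MRPL24. For DGAT2 the log2 fold change was -0.71 in clone 18, -1.02 in shXBP1 clone 1 and 1.69 and 2.36 under shIRE1. For CD59 the fits gave 0.43 and 0.62 with shIRE1 and -0.82 and -0.95 with shXBP1. DGAT2, CD59 and TAPBP are also in the RIDD list, of which 9 of 13 members differed between clone 18 and the shIRE1 clones, all lower in clone 18. The opposite pattern was seen for PLXNC1, ENO2, PPARGC1A and HSP90B3P.

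**Figure D5:**
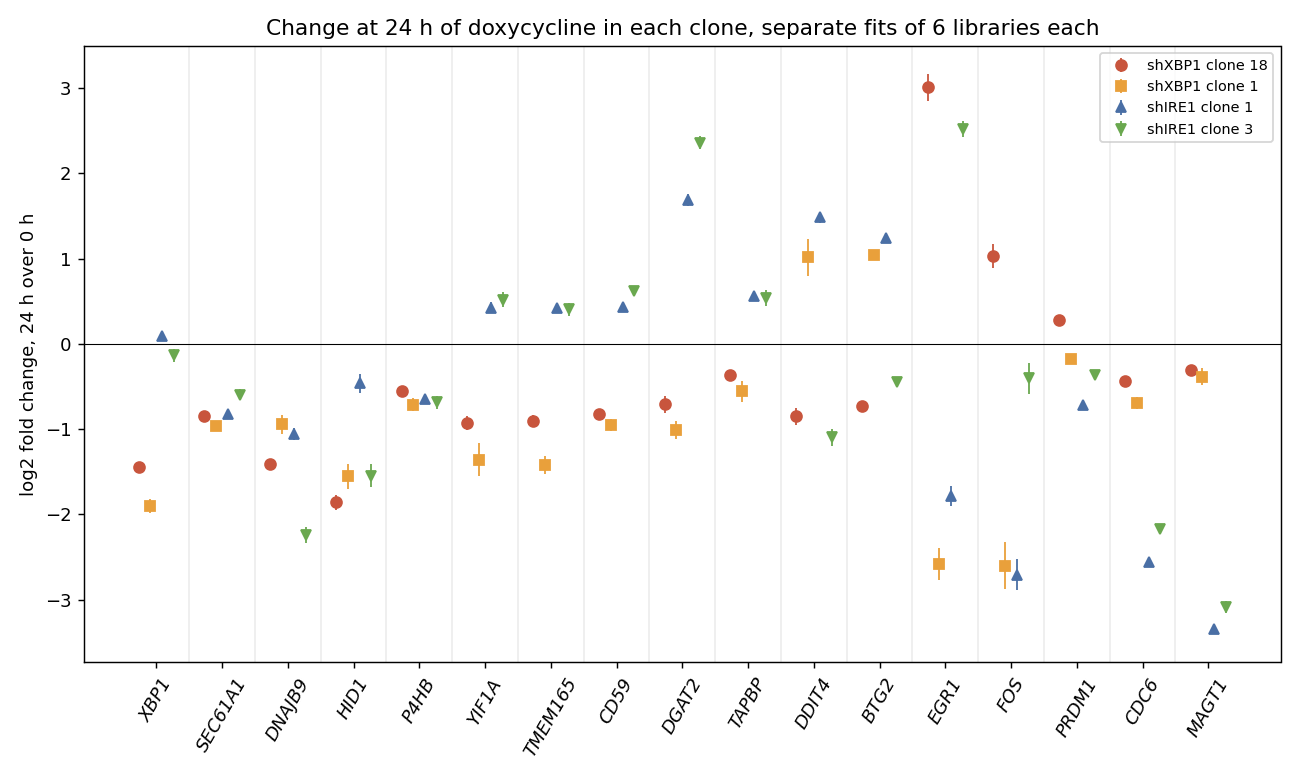
Log2 fold change at 24 h over 0 h (y axis) of 17 genes (x axis) in shXBP1 clones 18 (circles) and 1 (squares) and shIRE1 clones 1 (upward triangles) and 3 (downward triangles), each fitted on its own 6 libraries. Bars are ± 1 SE. SEC61A1, DNAJB9, HID1 and P4HB lie below 0 in all 4 clones, and YIF1A, TMEM165, CD59, DGAT2 and TAPBP lie below 0 in the shXBP1 clones and above 0 in the shIRE1 clones.

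Between 24 and 48 h little more was called. This comparison shares the 24 h libraries with the one above, and 48 h replicate 3 stood apart from replicates 1 and 2 (mean chi-square of 13.2 and 11.6 per gene, against 2.54 between those). Of 16326 genes 13 (0.0796%) were called, 12 lower and 1 higher, while 1534 had an unadjusted p under 0.05 and DESeq2 called 92. XBP1 fell by a further 0.49 (SE 0.058, adjusted p = 0.00974) and HID1 by 0.81 (SE 0.1, adjusted p = 0.0138). CCL4, a chemokine gene, fell by 1.31 and HIST2H2BE, a histone gene that had risen by 0.40 at 24 h, fell by 0.65. SEC61A1 had a log2 difference of -0.22 (adjusted p = 0.164) and SSR3 one of -0.33 (adjusted p = 0.105), and the median over the 213 secretory members was -0.05, with none called.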

How the data were processed

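RNA-seq libraries of AMO1 shXBP1 clone 18 were analysed, 3 at 0 h and 3 at 24 h of Dox, with the 24 and 48 h libraries of this clone and the 0 and 24 h libraries of 3 other clones for comparison. The authors deposited a table of whole-number counts per gene (58302 genes) and a table of log2 CPM values (18401 genes). Recomputing log2 CPM in edgeR (prior count 2) gave the deposited log2 values to within 5e-14, and they served as an alternative only. Per the submitters' processing notes, GSNAP, R 4.1.3, edgeR 3.32.1, limma 3.46.0 and the builds GRCh37 and hg19 were used, with no role stated. How strand entered the counting is not given in the sources used here, so overlapping genes on opposite strands may share reads. Libraries came from a stranded mRNA kit.

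Groups came from the sample labels, and flasks were biological triplicates of 1 clone. Counts were scaled by TMM (factors 0.981 to 1.02) and low genes were dropped with filterByExpr at a minimum count of 10 and a minimum total of 15. The 6 libraries were fitted with the quasi-likelihood F test of edgeR 4.0.16 in R 4.3.3, a Benjamini-Hochberg adjustment across every gene in the fit and a threshold of 0.05. Adjusted p-values in the text are from these fits. Errors of log2 fold changes are standard errors. Differences between clones were tested in 1 model of the 24 libraries at 0 and 24 h with a mean for each of 8 groups. The fits were tested on simulated data first. Those data held no GC-dependent deviation and no library that stood apart, so they say nothing of 24 h replicate 1. Total counts of 19177855 to 36240624 per library set the precision, and intervals cover counting error only. DESeq2 1.42.0, limma 3.58.1, other filters and scalings, a replicate block and leaving out each library were alternatives. A correction for GC content, alone and without 24 h replicate 1, was added after the data were seen.

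The members, gene lists and rules were chosen with earlier results of these data known. Named genes were XBP1, ERN1 and IRF4, the 15 largest falls and 8 largest rises among called genes with a mean log2 CPM above 1 and no overlap between groups, up to 6 called members of each list, or the 2 with the highest level where none was called, and the 4 largest differences each way between clones and from 24 to 48 h among called genes. Lists for sugar nucleotides, hypoxia, immediate early genes and cytosolic heat shock proteins, and other names in the text, were chosen after values were seen. No list was tested as a set. A few genes that these rules or lists include are not reported here. Gene positions are from GENCODE 44 and promoters from RefSeq, matched by identifier or symbol (57532 of 58302 identifiers matched, 98.68%, and 10519 tested genes had a promoter entry).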

Additional observations from a re-analysis of the deposited data

Results flagged for a closer look

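The response of shXBP1 clone 18 at 24 h differed from that of shXBP1 clone 1 at 2723 genes and from the mean of the shIRE1 clones at 6103 genes, each by a test of the difference itself. The genes below were called in clone 18 and were among those with the largest such differences in log2 units.

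Against shXBP1 clone 1, EGR1 was higher in clone 18 by 5.58 and FOS by 3.63, since both rose in clone 18 and fell in clone 1 (-2.58 and -2.60). AC020663.3 and SGPP2, the latter a sphingosine phosphatase gene, were higher by 3.31 and 2.62. DDIT4 differed by -1.87 and ZNF780A by -1.90, since both rose in clone 1 (1.02 and 1.26). IGKV3D-11 differed by -1.80 and PIK3R2 by -1.79, at mean levels under 2 CPM.

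Against the shIRE1 clones, EGR1 was higher by 2.64 and FOS by 2.59, although EGR1 rose in shIRE1 clone 3 (2.52) and fell in clone 1 (-1.78). MAGT1, a subunit of the oligosaccharyltransferase, was higher by 2.92, with a fall of 0.30 in clone 18 against 3.35 and 3.09 in the shIRE1 clones. AL365440.1 was higher by 2.75. DGAT2 differed by -2.73, AOC1 by -2.34 and ATP5F1P5 by -2.14. Clones differ in their origin as well as in their shRNA, and these cannot be told apart within 1 clone.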

How the results depend on the processing

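XBP1 fell in all 17 alternatives (log2 -1.40 to -1.47), and the falls in the 6 secretory lists (64 to 140) and among reported XBP1s targets (36 to 55) stayed within 1.5 times of 96 and 47, and the difference from the shIRE1 clones (5190 to 7614) did so for 6103. The total of 874 calls (596 falls, 278 rises) moved more. It was 1427 (919, 508) with no filter, 268 (219, 49) in a fit of all 12 libraries of the clone, 2590 (1412, 1178) with the GC correction, 4092 (2135, 1957) with that and without 24 h replicate 1, and 337 to 3015 (267 to 1659, 70 to 1356) with 1 library left out. Rises were 165 with limma on the log2 values. Falls were 81.7% of calls in the fit of 12 libraries and 52.2% with the GC correction without 24 h replicate 1. The fit of 12 libraries holds the 72 h library that resembled clone 1. Without it the count was 821, with 571 falls and 250 rises. The difference from shXBP1 clone 1 (2723) was 5111 with the GC correction and 1786 to 2930 with 1 library left out, the lowest without 24 h replicate 2. The change from 24 to 48 h (13) was 191 with no filter, 92 with DESeq2, 0 in the fit of 12 libraries (73 without the odd 72 h library), 480 with the GC correction and 4 to 40 with 1 library left out, 40 without 24 h replicate 1. Of 131 called genes and values followed singly, 75 kept their direction and call in every alternative and 56 lost the call in at least 1.

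Replicate numbers are shared between times, but the labels tie them to no common flask or day, and deviations of same-numbered libraries were not positively correlated (-0.291, -0.164 and -0.00762 across 13283 genes), nor did every library correlate best with its own number. With a replicate block 346 genes were called (270 falls, 76 rises, 78% falls), 343 of them among the 874. With the block 1668 genes differed from shXBP1 clone 1 and 78 changed from 24 to 48 h.

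Values near 0 changed sign in some alternatives. IRF4, at -0.0007118 in the fit of the 6 libraries, was 0.01024 without 0 h replicate 2. It was 0.02589 without 24 h replicate 3 and 0.004036 with the GC correction, but kept its sign without 24 h replicate 1 (-0.02218). HSPA5, at 0.006164 in the fit of the 6 libraries, was -0.0009339 with limma on the log2 values. It was -0.004163, -0.001886 and -0.02261 without 0 h replicate 1, 0 h replicate 3 and 24 h replicate 1. With the GC correction it was -0.00196, and -0.002974 with that and without 24 h replicate 1. Without 24 h replicate 3 it kept its sign (0.03258). None passed the test. Depth limits genes under about 1 CPM.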
